A study of Equus caballus with 34 samples.

Results

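The nuclear-encoded respiratory chain of the horse follicle was followed gene by gene and complex by complex through the last stages before ovulation. The genes were taken from a list of 51 subunits of complexes I to V with cytochrome c, and a gene was kept if a probe carried its gene number, symbol or protein name and was well above background on 5 or more of the 34 arrays. By this rule 43 genes were found among the 10926 named genes measured, read by 134 of the 36629 probes kept. They comprise 18 genes of complex I, 3 of complex II, 6 of complex III, 7 of complex IV, 8 of complex V and the cytochrome c gene CYCS. NDUFA4, NDUFA5, NDUFB6, NDUFC2, SDHD, UQCRQ, COX7B and COX8A had no probe matched here and were not analysed. The probe that represented each of the 43 genes was well above background on all 34 arrays. COX6C was saturated on 7 of the 34 arrays, so its differences may be compressed.

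The respiratory chain sits in the inner mitochondrial membrane. Complex I takes electrons from NADH and complex II takes them from succinate. Both pass them through ubiquinone to complex III, then by the mobile carrier cytochrome c to complex IV, which reduces oxygen. Complexes I, III and IV pump protons, and complex V, the ATP synthase, uses the gradient to make ATP. In the steroid-making cells of the ovary the same membrane also holds the enzyme that begins steroid synthesis from cholesterol. A few core subunits of complexes I, III, IV and V are encoded in mitochondrial DNA, and no probe of the 13 genes of that set was tested here.

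Each array held labelled RNA from 1 sample of granulosa cells (GC), which line the follicle's cavity, or of the theca wall (TW), the vascular layer around them, from horse dominant follicles. The follicles were at the early dominant stage (ED), the late dominant stage (LD) or the preovulatory stage (PO). Every combination of layer and stage had 5 arrays, apart from TW LD with 9. The labels give no genotype, treatment or age, and the samples are described as biological replicates, with nothing that says which came from the same animal. The theca wall is a mixed tissue, and in such samples fewer cells of a type and less RNA per cell cannot be told apart.

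Levels are log2 signals relative to the 75th percentile of the same array, so 0 is the level of that percentile. Differences are on the log2 scale, SE stands for their standard error in limma, and a gene was called where the Benjamini-Hochberg adjusted p over all features of the fit was under 0.05. Levels of different probes are not comparable with each other, so each gene was compared only with itself. On the arrays, 64.3% to 82.5% of spots were well above background, with a median of 69.5% in GC PO and of 79.6% in TW PO. The granulosa gene CYP19A1, which encodes aromatase, had mean levels between 4.48 and 5.63 in the GC stages and between −0.44 and 0.50 in TW. The theca gene PDGFRA was well above background on each TW array and on 1 of 5, 1 of 5 and 3 of 5 arrays of GC ED, LD and PO. The separation was not complete for every marker. The theca gene CYP17A1 was well above background on each GC array. Its mean levels were 3.46, 3.04 and 2.73 in GC ED, LD and PO, and no lower than 5.15 in the TW stages. CYP19A1 was well above background on each TW array. The granulosa gene FSHR was so on 2 of 5, 3 of 9 and 1 of 5 arrays of TW ED, LD and PO. Summed over each list, markers of the other layer were highest on single arrays. The summed signal of 10 granulosa markers reached 83.7 times the array's 75th percentile on TW ED 5, against a lowest GC value of 113, and that of 11 theca markers reached 66.9 on GC LD 1, against a lowest TW value of 135. The smooth muscle sum was 44.6 on GC LD 3.

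The respiratory chain levels of the layers separated at the preovulatory stage. Averaged over those of the 43 genes with a value, the level on the GC PO arrays was 3.49, 3.56, 3.57, 3.59 and 3.59, while the TW PO arrays stood at 2.51, 2.61, 2.62, 2.69 and 2.72. The GC LD arrays had been at 2.92, 3.00, 3.17, 3.23 and 3.47, and the 9 TW LD arrays ranged from 2.74 to 3.46 with a median of 3.02. Thus, in the scaling used here, each GC PO array stood above each GC LD array, and each TW PO array below each TW LD array. The margins were narrow, at 3.49 against 3.47 in GC and 2.72 against 2.74 in TW. These array means were not computed under other scalings. Arrays with flagged spots were averaged over fewer genes. The fewest were 37 on TW ED 4, 39 on TW LD 6 and TW PO 4, and 40 on TW LD 7 and TW PO 2. Before that stage the layers overlapped, with GC ED between 2.85 and 3.48 and TW ED between 2.72 and 3.09.

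**Figure D1:**
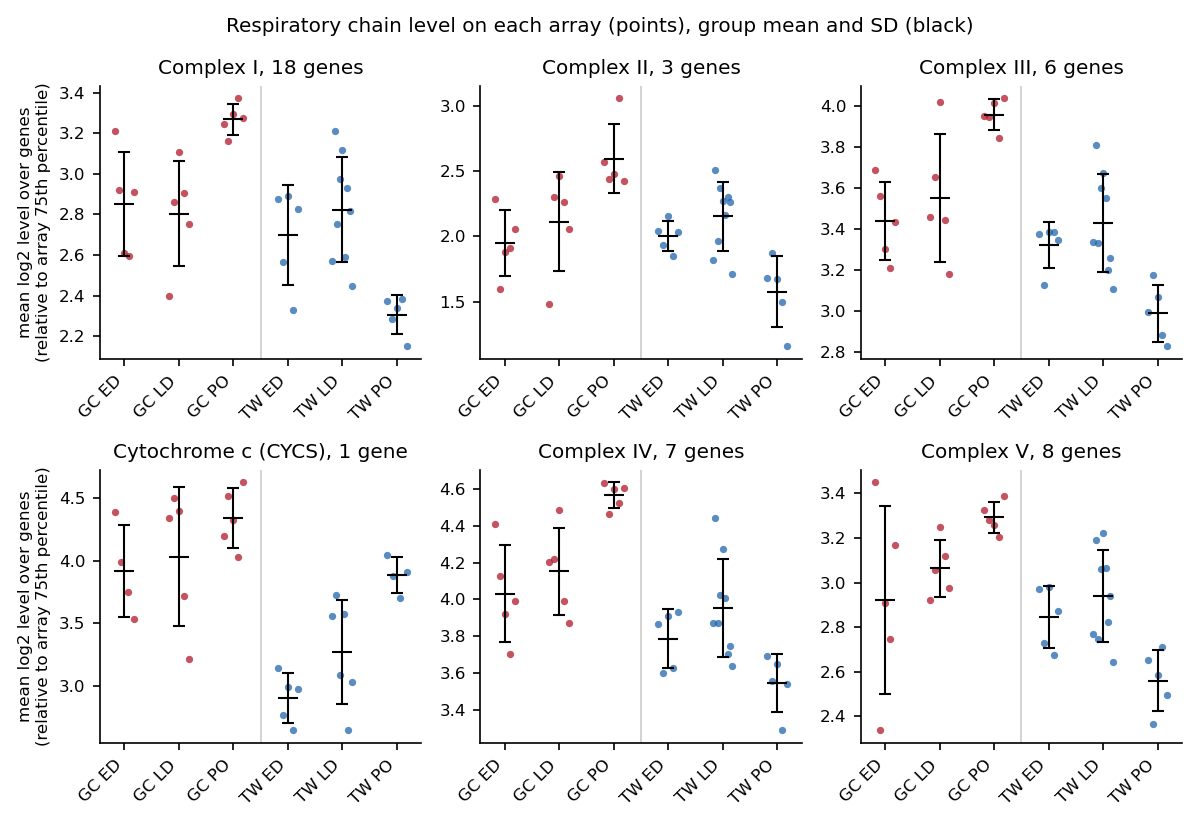
Mean log2 level of the measured genes of each complex on each array, relative to the array's 75th percentile, by layer and stage; points are arrays, black marks are the group mean and SD. GC PO arrays stand above TW PO arrays in each of the 5 complexes, while CYCS is higher in TW PO than in TW ED. An array whose spot was flagged for a gene is averaged over the remaining genes of the complex.

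The first question was whether the stage change differed between layers, asked as the difference between the GC change and the TW change in 1 fit over the 34 arrays (the interaction). From LD to PO, 29 of the 43 genes were called with a more positive change in GC than in TW and 0 with a more negative one. Of all 27811 features 8.67% were called in the first direction and 10.9% in the second. The estimate was above 0 for 41 genes and below 0 for 2. The median difference of the 43 genes was 0.86, and it was −0.11 over all features. From ED to PO the count was 25 and 0 (background 13.7% and 15.8%), with a median of 0.76 against −0.13. From ED to LD, limma called 0 of the 43 genes, as it did of all 27850 features (background 0.0%). Of the 43 genes 1 had an unadjusted p under 0.05, against 2146 of the 27850 features. The members are not independent of one another, since they are measured on the same arrays.

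Complex I, the largest of the complexes, gave 15 of its 18 measured genes to the LD to PO difference, with values from 0.73 in NDUFV2 to 1.45 in NDUFA2. The core subunit NDUFS3 differed by 1.30 ± 0.24 SE (adjusted p = 0.0008), and the NADH-binding NDUFV1 by 0.96. The accessory subunits NDUFA1 (0.95), NDUFA6 (0.86), NDUFA8 (0.93), NDUFA9 (1.22), NDUFB3 (1.24), NDUFB5 (1.00), NDUFB8 (0.94), NDUFB9 (1.02) and NDUFB10 (1.24) were called, as were the iron-sulfur subunits NDUFS7 (0.85) and NDUFS8 (0.91). NDUFS1, NDUFS4 and NDUFA10 did not pass, at 0.74, 0.43 and 0.44. In complex II, which also serves the citrate cycle, the flavoprotein SDHA differed by 1.52 ± 0.34 SE (adjusted p = 0.0033) and the iron-sulfur subunit SDHB by 1.01. In complex III, UQCRC1 (1.04), UQCRB (0.83), UQCRC2 (0.81), CYC1 (0.75) and UQCRFS1 (0.99) were called, and UQCRH at 0.66 was not. Complex IV gave COX5A (1.14), COX5B (0.95), COX7A2 (0.89) and COX6B1 (0.87), and complex V gave the alpha and beta subunits of the ATP synthase head, ATP5A1 (0.85) and ATP5B (0.73), and the stalk subunit ATP5H (0.91). CYCS stood at −0.31 ± 0.34 SE (adjusted p = 0.57). ATP5C1, whose identity is doubtful as described below, had the lowest value of the 43 genes at −0.72 and was not called. The ED to PO difference added SDHC (0.72), ATP5D (1.34) and ATP5F1 (0.63) to the genes called. It did not call NDUFV1, NDUFV2, NDUFB5, NDUFS8, CYC1, ATP5A1 and ATP5B. In complex I its estimate was below 0 for 2 genes, at −0.33 in the lowest. Within their layers, GC LD 1 had the highest theca sum, GC LD 3 the highest smooth muscle sum and TW ED 5 the highest granulosa sum. Without GC LD 1, GC LD 3 or TW ED 5, the LD to PO count was 27, 34 and 29. The ED to PO count was 26, 26 and 22.

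The sizes of these differences depended on how the arrays were scaled. Scaling moved the median of all features in the LD to PO difference by 0.32 under median centring, by 0.09 under quantile normalization, by 0.10 under normexp followed by quantile normalization and by 0.12 in the deposited table. Relative to that median the 43 genes stood at 0.97 in the main scaling and under median centring, at 0.54 under quantile normalization, at 0.52 under normexp and at 0.51 in the deposited table. The sign was positive for 41 genes under each of the 5 scalings. Called under each of them were 8 genes, NDUFS3, NDUFA1, NDUFA2, NDUFA9, NDUFB3, NDUFB8, SDHA and COX5A, while the count called was 11 with quantile normalization and in the deposited values.

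**Figure D2:**
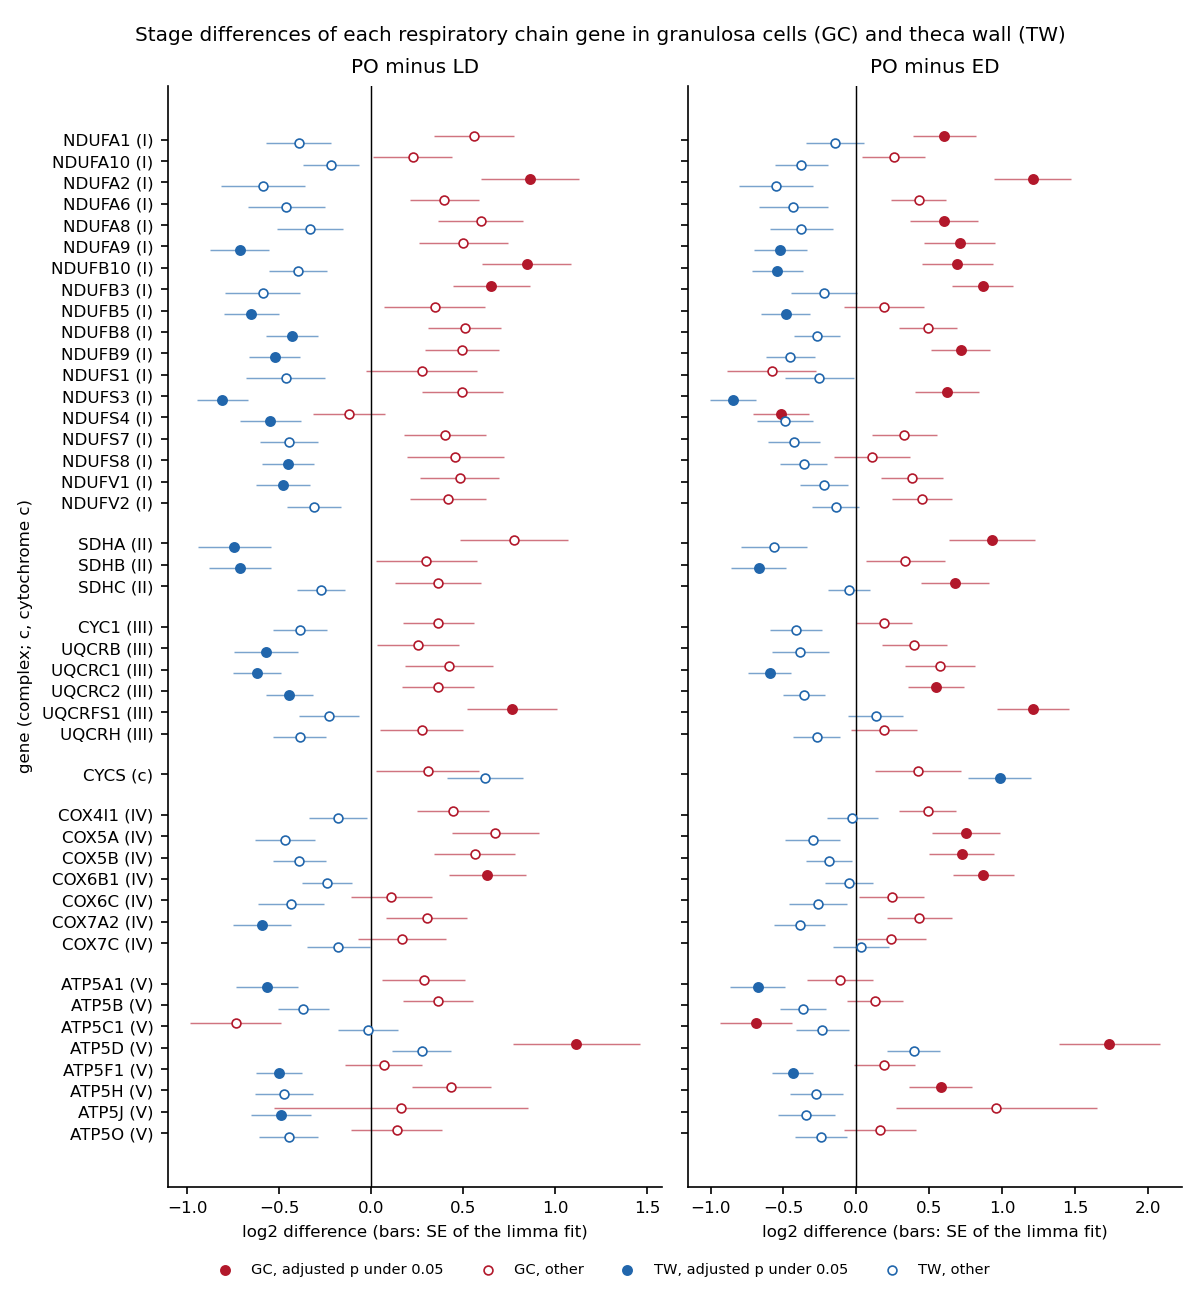
Log2 difference from LD to PO (left) and from ED to PO (right) for each of the 43 genes in GC (red) and TW (blue), with their standard errors from limma as bars; filled points were called at adjusted p under 0.05. Most red points lie to the right of 0 and most blue points to the left, with CYCS the gene that was called as higher in TW.

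Within granulosa cells the question was which subunits changed from stage to stage. From LD to PO, 6 of the 43 genes were called higher and 0 lower, against 6.79% of 24847 features called higher and 10.7% called lower. The estimate was above 0 for 41 genes with a median of 0.40, compared with 0.01 over all features. From ED to PO, 17 were called higher and 2 lower, against 21.6% and 22.6% of all features (44.2% in either direction), with a median of 0.45 against 0.04. The LD to PO count depended on the setting, and the shares of all features called under other settings are not given here. It was 1 with quantile normalization, with normexp, in the deposited values, with no filter and with slide as a fixed block, 7 with median centring and 16 with all 34 arrays in 1 fit. Leaving out 1 array moved it between 0 (without GC LD 1, GC LD 4, GC PO 1, GC PO 3 or GC PO 5) and 15 (without GC LD 3). It was 1 without GC LD 5, 2 without GC PO 4 and 3 without GC ED 3, GC ED 5 or GC LD 2. The ED to PO count was 5 with quantile normalization, 6 with normexp and in the deposited values, 10 with slide as a fixed block and 9 without GC ED 3.

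ATP5D, the delta subunit in the central stalk of ATP synthase, had the largest rise of the 43 genes in GC. Its level was −1.74, −0.79, −0.57, −0.47 and −0.24 on the GC ED arrays, −0.72, −0.54, −0.40, −0.04 and 1.00 at LD, and 0.51, 0.89, 1.02, 1.22 and 1.24 at PO. The PO arrays stood above each ED array but overlapped with 1 high LD array. The difference was 1.11 ± 0.34 SE from LD (2.16-fold, adjusted p = 0.038) and 1.74 ± 0.34 SE from ED (3.33-fold, adjusted p = 0.00118, n = 5 and 5). Both differences were called under each of the 5 scalings. The difference from LD was not called with no filter on dim probes, nor without GC LD 1, GC LD 2, GC LD 4, GC LD 5, GC PO 1, GC PO 3 or GC PO 5. In TW the PO arrays ran from −0.06 to 0.43 and the LD arrays from −0.65 to 0.22, a difference of 0.27 that was not called.

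UQCRFS1, the Rieske iron-sulfur protein of complex III, stood at 2.15, 2.63, 2.72, 2.79 and 2.83 on the GC ED arrays, at 2.51, 2.76, 3.07, 3.22 and 3.82 at LD and at 3.63, 3.74, 3.91, 3.94 and 3.97 at PO. Its levels at PO lay above all ED arrays and above 4 of the 5 LD arrays. The rise was 0.76 ± 0.24 SE from LD (adjusted p = 0.0437) and 1.21 ± 0.24 SE from ED (2.32-fold, adjusted p = 0.00132). Over the other settings and the fits with 1 array left out, the call from LD was lost in 17 and kept in 10. Of the genes called from LD in GC, only ATP5D was called under each of the 5 scalings. In TW UQCRFS1 was 2.47, 2.51, 2.55, 2.86 and 2.90 at PO, against 2.52 to 3.36 at LD, and 2 of the 5 PO arrays lay below the LD range.

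In complex I, the accessory subunit NDUFA2 stood at 1.20, 1.40, 1.72, 1.78 and 2.03 in GC ED, at 1.31, 1.82, 1.90, 2.26 and 2.59 in GC LD and at 2.30, 2.86, 2.88, 2.97 and 3.17 in GC PO. It rose by 0.86 ± 0.27 SE from LD (adjusted p = 0.0375) and by 1.21 ± 0.27 SE from ED (2.31-fold, adjusted p = 0.00225). NDUFB10 (0.84) and NDUFB3 (0.65) also rose from LD. Over the same alternatives, the call from LD was lost in 12 for NDUFA2, 10 for NDUFB10 and 16 for NDUFB3. It was kept in 15, 17 and 11. From ED, NDUFB3 (0.87), NDUFB9 (0.72), NDUFA9 (0.71), NDUFB10 (0.69), NDUFS3 (0.62), NDUFA1 (0.60) and NDUFA8 (0.60) rose. Complex II gave SDHA (0.93) and the membrane anchor SDHC (0.67), and complex III gave UQCRC2 (0.55) beside UQCRFS1. These were rises of 1.46-fold to 1.90-fold, smaller than those of ATP5D, UQCRFS1 and NDUFA2.

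COX6B1, a subunit on the outer face of complex IV, stood at 3.62, 3.89, 4.00, 4.11 and 4.35 in GC ED and at 4.78, 4.86, 4.87, 4.90 and 4.91 in GC PO, without overlap. It rose by 0.87 ± 0.21 SE from ED (adjusted p = 0.00397) and by 0.63 ± 0.21 SE from LD (adjusted p = 0.0498). The call from LD was lost in 19 of these alternatives and kept in 8. COX5A (0.75) and COX5B (0.72) rose from ED, and so did ATP5H (0.58). COX7C (0.24), COX6C (0.24) and COX7A2 (0.43) were not called, so complex IV did not pass as a whole.

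In GC 2 genes fell. NDUFS4, an accessory subunit of complex I, stood at 4.35, 4.38, 4.47, 4.59 and 4.89 in GC ED and at 3.59, 4.11, 4.11, 4.11 and 4.17 in GC PO, a fall of 0.52 ± 0.19 SE (adjusted p = 0.0413) without overlap. The gene listed as ATP5C1, the gamma subunit, fell by 0.69 ± 0.25 SE (adjusted p = 0.0338). Its 2 probes carry the gene number and protein name, but another probe under that number was described as TAF3 and left out, so the identity of the ATP5C1 signal is doubtful. NDUFS1, the large iron-sulfur core subunit, stood at 2.64 to 3.52 in GC ED, 1.54 to 3.13 in GC LD and 2.47 to 2.79 in GC PO, and its differences of −0.85 from ED to LD and −0.58 from ED to PO were not called (adjusted p = 0.236 and 0.133).

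**Figure D3:**
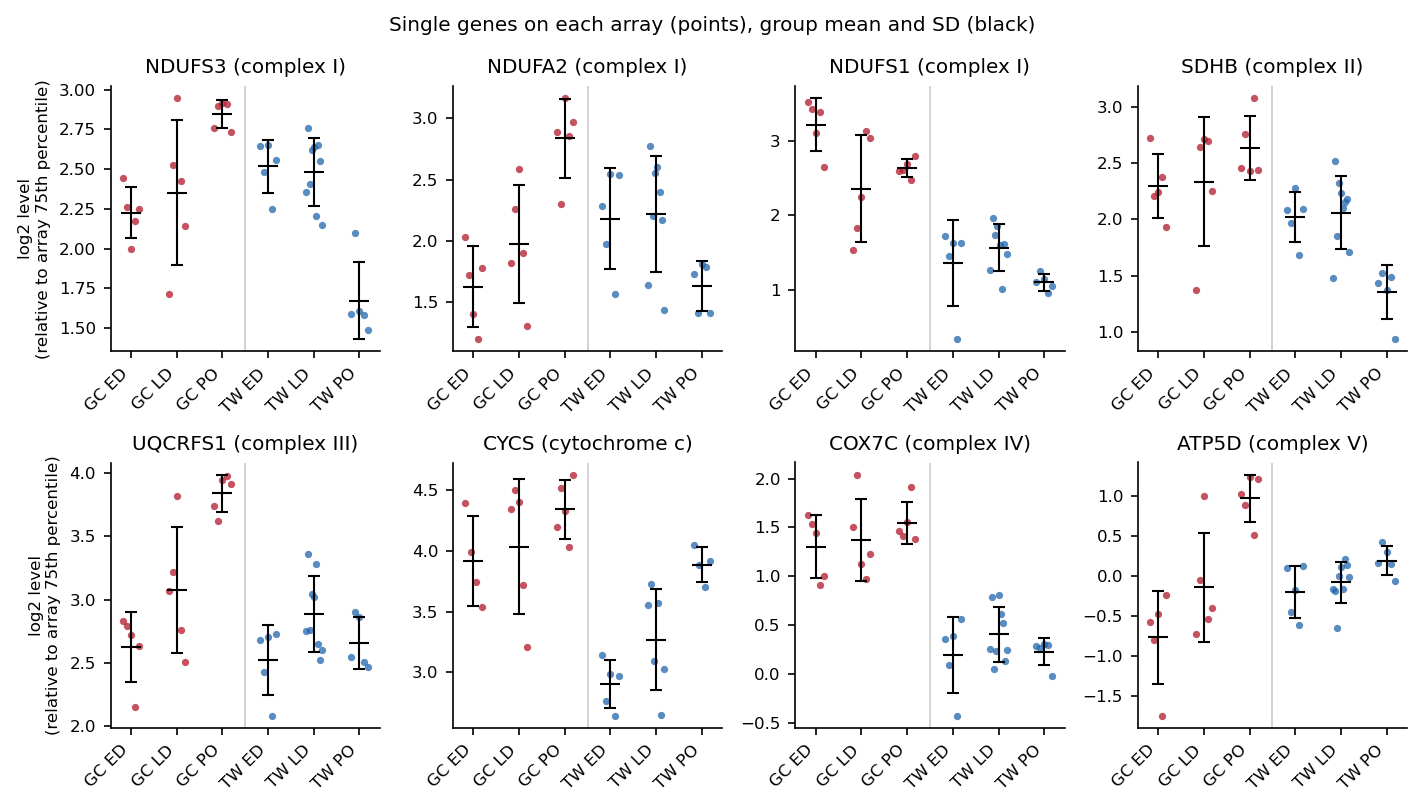
Log2 level of 8 genes on each array, relative to the array's 75th percentile, by layer and stage, with group mean and SD in black; points are arrays. NDUFS3, NDUFA2, NDUFS1, SDHB, UQCRFS1 and ATP5D separate the layers at PO, as most of the 43 genes do. COX7C separates the layers at each stage, and CYCS has its highest TW values at PO.

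In the theca wall the same question gave falls. From LD to PO, 17 of 43 genes were called lower and 0 higher, against 6.83% of 27007 features called lower and 8.75% called higher. The median was −0.45 over the 43 genes and 0.03 over all features. An unadjusted p under 0.05 was found for 35 of the 43 genes, against 8829 of 27007 features. From ED to PO, 8 were called lower and 1 higher, against 12.4% and 13.8% of all features. The LD to PO count was 10 with quantile normalization, 15 with normexp, 14 in the deposited values, 32 with median centring, 35 with array weights and 5 with slide as a fixed block. The shares of all features called under these settings are not given here. With median centring the median of all features was itself −0.18, against 0.03 in the main scaling. Without TW PO 5 the LD to PO count was 4 and without TW LD 9 it was 27. It was 9 without TW PO 1 and 10 without TW LD 2, TW LD 4, TW LD 5 or TW PO 3. Without the 4 arrays of slide 7, on which repeated probes scattered most, it was 20. The ED to PO count was 22 with median centring, 15 with normexp, 14 in the deposited values, 26 with array weights, 4 without TW ED 1, TW ED 3 or TW PO 5 and 5 without TW ED 5, TW PO 1 or TW PO 3.

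NDUFS3 fell most in TW. It stood at 2.25, 2.48, 2.55, 2.65 and 2.65 at ED, between 2.15 and 2.76 with a median of 2.55 over the 9 LD arrays, and at 1.49, 1.58, 1.59, 1.61 and 2.10 at PO. No PO array reached the lowest LD or ED array. The fall was 0.81 ± 0.14 SE from LD (1.75-fold lower, adjusted p = 0.00474) and 0.84 ± 0.16 SE from ED (adjusted p = 0.00151). In GC the same gene stood at 2.00, 2.17, 2.25, 2.26 and 2.45 at ED and at 2.74, 2.76, 2.90, 2.91 and 2.92 at PO, so it moved in opposite directions in the layers. The array's annotation places its probe on chromosome 12 from 9295634 to 9295693, with the genome build not given in the sources used here.

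In complex I, NDUFA9 (−0.72), NDUFB5 (−0.65), NDUFS4 (−0.55), NDUFB9 (−0.53), NDUFV1 (−0.48), NDUFS8 (−0.45) and NDUFB8 (−0.43) fell in TW from LD to PO. NDUFA9 was at 0.79 to 1.55 with a median of 1.16 in TW LD and at 0.02, 0.26, 0.47, 0.48 and 0.85 in TW PO, where 4 of 5 arrays lay below the LD range. From ED to PO, NDUFS3, NDUFB10 (−0.54), NDUFA9 (−0.52) and NDUFB5 (−0.48) fell. NDUFS4 is the gene of the 43 called as lower in both layers, though in different steps.

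Both catalytic subunits of complex II fell. SDHB stood at 1.68, 1.96, 2.08, 2.09 and 2.28 in TW ED, between 1.48 and 2.52 with a median of 2.16 in TW LD, and at 0.93, 1.37, 1.43, 1.49 and 1.52 in TW PO. It fell by 0.71 ± 0.17 SE from LD (adjusted p = 0.0126) and by 0.67 ± 0.19 SE from ED (adjusted p = 0.0153). The PO arrays lay below all ED arrays and overlapped with 1 LD array, at 1.48. SDHA fell by 0.74 ± 0.20 SE from LD (adjusted p = 0.0203), from a median of 1.89 over 9 arrays to 0.42, 0.60, 1.14, 1.22 and 1.49. The membrane anchor SDHC was at −0.27 and was not called.

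In complex III, the core protein UQCRC1 stood at 2.53, 2.62, 2.63, 2.68 and 2.92 in TW ED and at 1.88, 1.92, 2.03, 2.09 and 2.47 in TW PO, without overlap, and fell by 0.62 ± 0.13 SE from LD (adjusted p = 0.00878). UQCRB (−0.57) and UQCRC2 (−0.44) fell from LD too, while UQCRFS1 (−0.23) was not called. In complex IV, COX7A2 fell by 0.59 ± 0.16 SE (adjusted p = 0.0195), the 1 gene of 7 called there. In complex V, ATP5A1 (−0.57), the peripheral stalk subunit ATP5F1 (−0.50) and the coupling factor ATP5J (−0.49) fell from LD. ATP5A1 had 4 measured PO arrays, at 4.45, 4.46, 4.56 and 4.89, against 5.13, 5.16, 5.17, 5.28 and 5.60 at ED. From ED, ATP5A1 fell by 0.68 ± 0.19 SE (adjusted p = 0.0148) and ATP5F1 by 0.44.

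CYCS, the gene of the electron carrier that also triggers caspases when it leaves the mitochondrion, went the other way in TW. It stood at 2.64, 2.77, 2.97, 2.99 and 3.15 on the ED arrays and at 3.70, 3.88, 3.91 and 4.05 on the 4 PO arrays with an unflagged spot. The 6 LD arrays with a value lay between 2.65 and 3.73. PO arrays did not overlap with ED, and the rise was 0.98 ± 0.21 SE (1.98-fold, adjusted p = 0.00497), called under each of the 5 scalings and with each array left out in turn. From LD it was 0.62 ± 0.21 SE (adjusted p = 0.056), not called. A second probe of the gene gave 0.77 from ED to PO. In GC, CYCS was between 3.54 and 4.39 at ED (4 arrays) and between 4.03 and 4.63 at PO, with a difference of 0.42 that was not called. The annotation places the main probe on chromosome 4, from 55979969 to 55980028.

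Marker lists of cell types were read in the same steps. Over all features, 8.75% were called higher and 6.83% lower in TW from LD to PO. Of 13 leukocyte markers 10 were called higher in TW PO than in TW LD and 0 lower, and their summed signal ranged from 18.2 to 60.8 times the 75th percentile in TW PO and from 13.3 to 31.9 in TW LD. Of 9 endothelial markers 4 were called higher and 0 lower, with sums of 7.93 to 11.3 in TW PO and 2.97 to 11.9 in TW LD. Of 11 theca markers 3 were called lower (GLI1, HHIP and PTCH1, the hedgehog pathway genes) and 0 higher, with sums of 167 to 205 in TW PO and 135 to 265 in TW LD. The smooth muscle and pericyte list had 1 of 7 called higher, with sums of 16.0 to 32.0 and 7.45 to 49.4. The granulosa list had 0 of 10 called, with sums of 14.8 to 39.0 in TW PO and 15.3 to 51.9 in TW LD. In GC from ED to PO, 5 of 10 granulosa markers were called lower and 1 higher, with sums of 207 to 333 at ED and 113 to 147 at PO, and 6 of 13 leukocyte markers were called higher and 1 lower, with sums of 2.56 to 6.79 and 2.73 to 8.11. In the same step 2 of 7 smooth muscle markers were called higher, TAGLN by 3.32 and DES by 4.47, with sums of 1.47 to 9.38 at ED and 11.0 to 26.2 at PO that did not overlap. Of 11 theca markers 2 were called higher and 1 lower, with sums of 11.8 to 40.7 and 7.55 to 25.6, and of 5 endothelial markers tested 1 was called higher. Over all features 21.6% were called higher and 22.6% lower in that step. The smooth muscle, theca and endothelial counts were thus near or below these shares. From LD to PO in GC, 2 of 10 granulosa markers were called lower (background 10.7%) and 0 of 13 leukocyte and 0 of 11 theca markers were called, with granulosa sums of 117 to 362 at LD. Each kept granulosa, theca, smooth muscle and leukocyte marker was well above background on at least 1 array of GC PO and of each TW stage, so none was at 0 there. Of the 9 endothelial markers, 3 were well above background on no GC PO array. The part of these cell types in the respiratory chain differences was not tested.

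Each slide held each stage of its layer, so the steps can be read within slides. The median change of the measured genes from LD to PO was positive on all 5 GC slides, between 0.11 and 0.64, and negative on all 5 TW slides, between −0.67 and −0.19. From ED to PO the slides gave 0.09 to 0.72 in GC and −0.57 to −0.04 in TW. From ED to LD they had no common sign, at −0.50 to 0.61 in GC and −0.28 to 0.23 in TW. Of the 51 calls made for the genes in the stage steps, 49 had the called direction on each slide that held both stages with a value, the exceptions being NDUFB8 from LD to PO and NDUFA9 from ED to PO in TW. These calls were made on the same arrays, so the agreement is no independent check of them. The share over all called features was not computed. For genes with several probes, other probes had the sign of the main probe in each called difference.

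The step from ED to LD gave 0 called genes in either layer by limma, with background 0.00402% in GC and 0.037% in TW (0.0148% higher and 0.0222% lower). In each layer 1 gene had an unadjusted p under 0.05, against 3766 of 24852 features in GC and 4093 of 27048 in TW. No other setting called a gene in these steps. The medians were 0.07 in GC and 0.15 in TW. The smallest p of each complex in GC belonged to NDUFS1 (−0.85), SDHC (0.31), UQCRFS1 (0.45), COX6B1 (0.24) and ATP5D (0.62), with adjusted p from 0.236 to 0.585. In TW they belonged to NDUFB3 (0.37), SDHC (0.22), UQCRFS1 (0.36), COX5B (0.20) and ATP5C1 (−0.21), with adjusted p from 0.307 to 0.563. CYCS stood at 0.12 in GC and 0.37 in TW.

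The last question was how the levels of the layers compare. At PO, 37 of the 43 genes were called higher in GC and 0 lower, against 19.9% of 27814 features called higher and 28.7% called lower. For 39 of the 43 genes each GC array with a value lay above each TW array with a value, which held for 14.7% of all features. Of these genes NDUFA1, NDUFV2, COX4I1, COX6C and ATP5A1 had a value on 4 TW arrays. The genes outside that count were NDUFA10, NDUFS8, CYCS and ATP5C1. The largest differences were NDUFS1 (1.53, 2.88-fold), NDUFA9 (1.41), CYC1 (1.32), COX7C (1.32), SDHB (1.29) and COX5A (1.28), with adjusted p of 3.31e-04 or less for each of them and for SDHA (1.19). By complex, 16 of 18 genes of complex I, 3 of 3 of complex II, 6 of 6 of complex III, 6 of 7 of complex IV and 6 of 8 of complex V were called. The count without overlap was 18 with quantile normalization, 15 with normexp, 21 in the deposited values and 43 with median centring, and 21 genes were called higher under each of the 5 scalings. The share of all features without overlap was computed in the main scaling only. With median centring the median of all features at PO was 0.53, against −0.25 in the main scaling. With slide as a fixed block 8 genes were called at PO and the median of the 43 genes was 0.73. No slide held both layers at PO, so that fit links the layers only through the 2 TW LD arrays on GC slides.

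**Figure D4:**
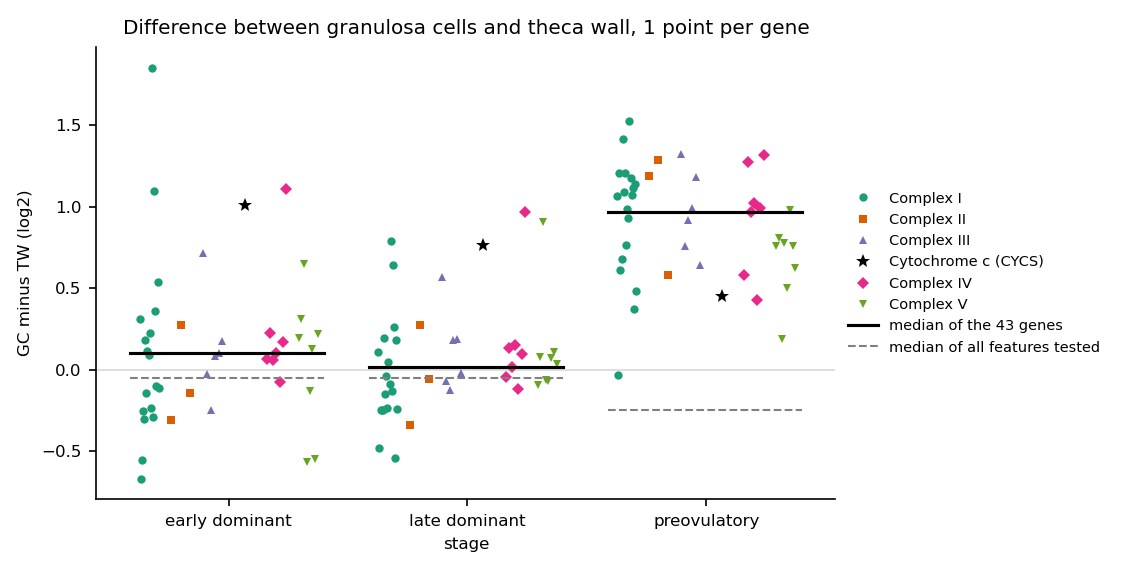
GC minus TW log2 difference of each of the 43 genes at the ED, LD and PO stage, coloured by complex; the solid line is the median of the 43 genes and the dashed line that of all features tested. The genes lie on both sides of 0 at ED and LD, with medians of 0.10 and 0.02, and nearly all lie above 0 at PO, with a median of 0.97.

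At ED, 7 genes were called higher in GC and 1 lower (background 14.3% and 20.4%), and at LD 6 and 2 (12.1% and 19.2%, 31.3% in either direction). At ED the arrays of the layers did not overlap for NDUFS1, NDUFS4, COX7C, CYC1 and CYCS, higher in GC, and for NDUFA10, lower in GC (background 13.8% and 18.4%). At LD this held for NDUFS4 and COX7C, both higher in GC (background 2.9%), and for no gene in the other direction (7.59%). The sign of the median at these stages depended on the scaling. Relative to the median of all features it was 0.15 at ED and 0.07 at LD in the main scaling, 0.15 and 0.05 with median centring, −0.28 and −0.22 with quantile normalization, −0.19 and −0.15 with normexp and −0.22 and −0.19 in the deposited values. At PO it was above 0 in each, from 0.36 to 1.21. With slide as a fixed block the median itself was −0.08 at ED and −0.15 at LD. On the 2 slides that held both layers at LD, the median GC minus TW difference was −0.54 on slide 2 and 0.16 on slide 8.

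**Figure D5:**
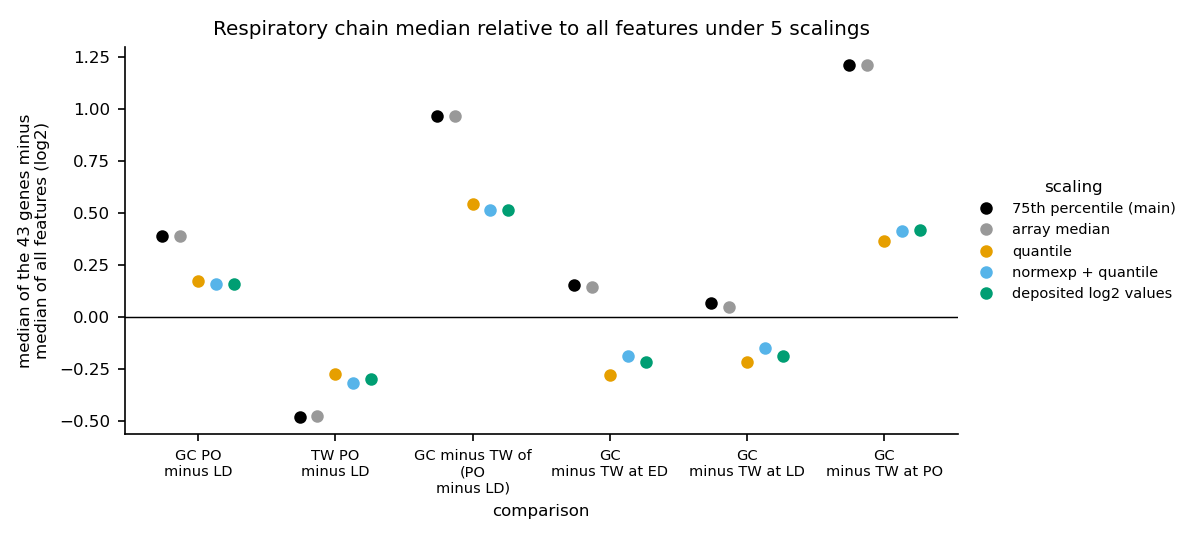
Median log2 difference of the 43 genes minus the median of all features tested, for 6 comparisons under 5 ways of scaling the arrays; each point is 1 scaling. The PO steps, their difference between layers and the GC minus TW difference at PO keep their sign, while the GC minus TW difference at ED and LD is above 0 in 2 scalings and below 0 in 3.

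Averaged over the stages, 26 genes were called higher in GC and 1 lower, against 22.5% and 30.0% of 27807 features (52.5% in either direction). The split was 12 and 6 with quantile normalization, 13 and 7 with normexp, 14 and 5 in the deposited values and 42 and 0 with median centring, and 2 and 0 with slide as a fixed block. Relative to all features the median was 0.37 in the main scaling and −0.06 with quantile normalization, so no direction is given for the chain as a whole. Single genes did keep theirs. COX7C, a small subunit of complex IV, stood at 0.91 to 1.62 in GC ED, 0.97 to 2.04 in GC LD and 1.38 to 1.91 in GC PO, and at −0.43 to 0.56, 0.05 to 0.81 and −0.02 to 0.31 in the TW stages. Its lowest GC array lay above its highest TW array, and the difference was 1.13 ± 0.12 SE (2.19-fold, adjusted p = 8.18e-10, 15 and 19 arrays), called under each scaling and with each array left out in turn. The single probe was matched by its description as similar to this subunit, and lies on chromosome 14 from 79658637 to 79658696 in the annotation.

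NDUFS1 was 1.39 ± 0.15 SE higher in GC (2.62-fold, adjusted p = 3.1e-09) and NDUFS4 was 0.94 ± 0.10 SE higher (adjusted p = 2.43e-09), called at each of the 3 stages. CYC1, the heme-carrying subunit of complex III, was 0.87 higher and CYCS 0.74 higher. In complex III the next was UQCRFS1 (0.49) and the lowest UQCRC1 (0.18). In complex II, SDHB (0.61) led, followed by SDHA (0.18), and SDHC (0.13) was lowest. In complex IV, COX5A (0.54) followed COX7C and COX6C (0.08) was lowest. In complex V, ATP5C1 (0.58, of doubtful identity) and ATP5B (0.40) led and ATP5D (0.05) was lowest. NDUFA10, a membrane-arm subunit, was the 1 gene called lower in GC, by 0.39 ± 0.10 SE (adjusted p = 0.00197). It stood at 2.49 to 2.91 in GC ED and 3.11 to 3.49 in TW ED (4 arrays), without overlap, but at 2.61 to 3.33 and 2.72 to 3.11 at PO. With median centring, which shifts all features toward GC, NDUFA10 was at 0.17, above 0.

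Other genes of the same machinery, from lists that do not overlap with the 43, give the setting. Of 23 other structural subunits tested, 16 were called in the LD to PO difference between layers and 0 in the other direction (median 1.03), with 3 higher in GC PO than LD and 11 lower in TW. The shares over all features were 8.67% and 10.9% in the difference, 6.79% higher in GC and 6.83% lower in TW. UQCR11 (1.00), NDUFV3 (0.97) and ATP5MF (0.82) rose in GC, and NDUFS6 (−0.76), NDUFA12 (−0.74) and ATP5MC1 (−0.70) fell in TW. Of 28 assembly factors, which build the complexes, 10 and 0 were called in that difference (median 0.73). COX11 (1.41), which delivers copper to complex IV, NDUFAF1 (0.80) and UQCC1 (0.62) rose in GC, and COA4 (−1.04), NDUFAF1 (−1.02) and TMEM126B (−0.93) fell in TW, where 9 of 28 fell. Of 17 genes of pyruvate dehydrogenase and the citrate cycle, 8 and 0 were called (median 0.85). OGDH (1.51), PDHX (0.74) and PDHA1 (0.73) rose in GC from LD, and PDHB (−0.80), IDH3G (−0.54) and SUCLG1 (−0.49) fell in TW. Medians of these 3 lists in the difference between layers were above 0 under each of the 5 scalings, but the counts moved. With quantile normalization, with normexp and in the deposited values the other subunits gave 9, 8 and 7 in place of 16, the citrate cycle list 2, 3 and 5 in place of 8, and the assembly factors 11, 11 and 12 in place of 10. Under the same scalings 0 of the other subunits were called in GC from LD to PO, in place of 3, and 6, 6 and 5 in TW, in place of 11.

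Of 10 mitochondrial carriers and membrane proteins tested, 4 and 0 were called in the LD to PO difference (median 0.83). With quantile normalization, with normexp and in the deposited values 2, 2 and 1 were called in place of 4. The medians there were 0.48, 0.50 and 0.55. The outer membrane channel VDAC1 rose in GC by 1.55, and VDAC3 (−0.74) and the ATP synthase inhibitor ATP5IF1 (−0.62) fell in TW. Regulators of mitochondrial biogenesis had 1 of 12 called in that difference, near the 8.67% of all features, and a median of 0.07. Among them the nuclear receptor ESRRA rose in GC by 1.30 ± 0.34 SE from LD (adjusted p = 0.0189) and fell in TW by 0.42, while TWNK, the mitochondrial DNA helicase, rose in TW by 0.46. In GC 1 of 12 was called higher, against 6.79% of all features. In TW 1 of 12 was called in each direction, against 8.75% higher and 6.83% lower, so these counts are near the shares over all features. In TW the list had 0 genes called higher under each of the other 4 scalings, and 0 called lower with quantile normalization, with normexp and in the deposited values. Of the tissue-restricted isoforms 4 were tested. COX7A1, the heart and muscle form of a complex IV subunit, rose in GC from LD by 0.93, and 0 of these isoforms were called in that step with quantile normalization, with normexp or in the deposited values. COX4I2, an alternative form of subunit 4 of that complex, fell in GC from ED to PO by 2.66 ± 0.56 SE (adjusted p = 0.00167). It stood 3.79 higher in GC than in TW at ED, 2.47 at LD and 1.61 at PO. Each difference was called by limma in the main scaling. Under the other scalings COX4I2 was not read singly. For GC minus TW at PO, its list had 2 genes called higher with median centring and 1 under each of the others.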

How the data were processed

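RNA of 34 samples was labelled with Cy3 and hybridised to 1-colour Agilent arrays, 1 array per sample. Per the labels' protocols, 500 ng of RNA with an integrity number above 7.0 was amplified from an oligo(dT) primer. The spot intensity values in the deposited files were made with Agilent Feature Extraction 9.5.3.1 per the file headers (9.1 per the submitters' processing notes). They are background-subtracted and not scaled between arrays. Deposited flags mark spots well above background, saturated or scattered. The authors' deposited log2 table differed from quantile-normalized log2 mean signal by at most 0.0329, and every column has a median of 7.29.

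Here the values were log2 of the processed intensity minus each array's 75th percentile. Spots that were controls or carried an outlier flag did not enter, saturated spots did, and repeated spots were averaged. Each fit took the probes that were well above background on 5 or more of its arrays, where a gene was represented by its brightest kept probe. Stage steps were fitted with limma 3.58.1 (R 4.3.3) within a layer (15 GC or 19 TW arrays), and layer differences and interactions over all 34. All 9 TW LD arrays were used, since the labels do not say which 5 the design text means. Adjusted p-values come from these limma fits. The fit was tested on simulated data. Groups follow the labels; scans lie on 10 slides. Precision is limited by how many arrays there are.

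Of 134 probes, 92 were matched by gene number, 3 by symbol and 39 by protein name, with symbols from a RefSeq table of assembly TB-T2T. The members and lists were chosen with earlier results of these data known. Named with values were all members called in a stage step or interaction; for GC minus TW the 2 highest and the lowest of each complex; where no member was called, the smallest p of each complex; and up to 3 called genes per direction of the other lists. A planned ranking of levels between genes was dropped, since probes are not comparable. Tried as alternatives were 4 scalings, 2 filters, the mean of probes, slide as a fixed or random block, leaving out slide 7, 1 joint fit, array weights, a robust trend and each array left out; leaving out ATP5C1 was chosen after seeing the data.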

Additional observations from a re-analysis of the deposited data

Results flagged for a closer look

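Some arrays stood apart from the others of their group by Dixon's criterion for the highest or lowest value. Of 138 groups of values tested, 10 had such an array, and chance gives about 1 in 20. The mean of the complex II genes was 3.06 on GC PO 4, against a median of 2.46 on the other GC PO arrays, and that of the complex III genes was 3.13 on TW ED 2, against 3.38. On single arrays NDUFS3 was 2.10 on TW PO 2 against 1.58, NDUFS1 was 0.34 on TW ED 4 against 1.63 and NDUFS4 was 3.59 on GC PO 4 against 4.11. SDHA was 0.25 on GC ED 2 against 1.48 and SDHB was 0.93 on TW PO 5 against 1.46. COX7C was −0.017 on TW PO 5 against 0.29 and ATP5D was −0.65 on TW LD 3 against −0.00083. The widest gap was in ATP5J, the coupling factor of complex V, at 0.32 on GC ED 2 against 4.78 on the others.

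The stage change differed between the layers by the limma interaction test. From LD to PO 29 genes were called, 15 in complex I, 2 in complex II, 5 in complex III, 4 in complex IV and 3 in complex V. From ED to PO 25 were called, and the complexes gave 11, 3, 4, 4 and 3 of them.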

How the results depend on the processing

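Counts of called genes depended on the scaling and the treatment of slides more than on the filter. With quantile normalization the counts were 1 and 5 higher for GC PO against LD and ED (6 and 17 in the reported fit), 10 lower for TW PO against LD (17), 12 for GC minus TW (26), 23 at PO (37), and 11 and 14 for the interactions (29 and 25). With normexp they were 1, 6, 13, 24 and 15 for GC PO against LD and ED, GC minus TW, the same at PO and the LD to PO interaction, and 15 for TW PO against ED (8). The deposited values gave 1, 6, 14, 14, 11 and 15 for GC PO against LD and ED, TW PO against ED, GC minus TW and the interactions. With median centring they were 32 and 22 for TW PO against LD and ED and 42, 26 and 24 for GC minus TW over the stages, at ED (7) and at LD (6). With slide as a fixed block they were 1 and 10 for GC PO against LD and ED, 5 for TW PO against LD, and 2, 1, 1 and 8 for GC minus TW over the stages, at ED, LD and PO. For GC PO against LD, no filter gave 1, all 34 arrays in 1 fit 16, array weights 15 and a robust trend 10. For TW PO against LD array weights gave 35, and for TW PO against ED the 34-array fit gave 4 and array weights 26. These counts stand without the shares of all features called under the same settings.

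With each array left out in turn, the counts were 0 to 15 and 9 to 20 for GC PO against LD and ED, 4 to 27 and 4 to 11 for TW PO against LD and ED, 22 to 27 for GC minus TW, 5 to 7 at ED, 5 to 7 at LD, 35 to 38 at PO, and 26 to 34 and 19 to 27 for the interactions. GC PO against ED was 9 without GC ED 3 and 10 without GC ED 4 or GC PO 3. TW PO against ED was 4 without TW ED 1, TW ED 3 or TW PO 5 and 5 without TW ED 5, TW PO 1 or TW PO 3. Steps from ED to LD gave 0 throughout. Leaving out ATP5C1, chosen after seeing the data, moved no count by more than 1.

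Of 7671 values of single genes under alternatives, 696 were no longer called and 15 turned their sign. In GC minus TW these were NDUFB10 (−0.050 with quantile normalization, −0.21 with slide as a fixed block), NDUFS3 (−0.051 and −0.028), NDUFA10 (0.17 with median centring), ATP5O (−0.010 with quantile normalization) and UQCRH (−0.031 with quantile normalization, −0.12 with normexp, −0.10 in the deposited values). At PO they were NDUFV2 (−0.079 with quantile normalization, −0.11 with normexp), SDHC (−0.00062 with quantile normalization) and ATP5F1 (−0.074, −0.14 and −0.11 with quantile normalization, with normexp and in the deposited values). The cause was not tested. No paired analysis was possible because the labels give 1 running sample number and name no animal, so only slide was used as a block. The fixed slide block compares the layers only through slides 2 and 8, which hold both at LD, and a saturated probe such as that of COX6C limits what its differences can show.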

Other observations

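The arrays were more alike at PO than before in their mean level of the 43 genes. The SD over arrays was 0.24 at ED, 0.22 at LD and 0.042 at PO in GC, and 0.17, 0.23 and 0.082 in TW, over 5 arrays each except 9 for TW LD. The difference in spread was not tested, and on arrays with flagged spots the mean was over fewer genes.

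The coupling factor ATP5J stood at 4.33, 4.58, 4.99 and 5.33 on the GC ED arrays other than GC ED 2. The difference from ED to PO in GC was 0.96 with its main probe, and its other probes gave 0.22 and 0.28.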
